A study of Mus musculus with 28 samples.

Results

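The genes described here are the Hnrnp, Srsf and Celf regulators of splicing in the mouse amygdala. They were chosen by symbol (GENCODE M21): every gene whose symbol starts with Hnrnp, or with Srsf or Celf and a number, without pseudogenes and antisense genes, that was listed in the count tables of both batches with a mean of 10 or more counts per mouse. The rule gave 36 of the 16266 genes tested, 19 Hnrnp, 11 Srsf and 6 Celf genes. No gene with a matching symbol in both tables fell under the filter except the pseudogenes Hnrnpa1l2-ps and Hnrnpa1l2-ps2, which the rule leaves out, with mean counts of 0.357 and 0.286. Hnrnpul2 was listed in the second batch's table only and is described at the end.

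RNA was measured in bulk amygdala punches, which held the central and basolateral nuclei, of 28 adult female C57BL6/J mice that carried no transgene or deletion. The 10 Water mice had no alcohol, the 9 Acute mice had 20% ethanol in a single session at the end of the drinking period, and the 9 Chronic mice had 20% ethanol every other day for a month. Ethanol was offered beside water in a 2-bottle choice, so that each mouse set its own intake. Of these, 4 Water, 4 Acute and 3 Chronic mice made up the first batch, and 6, 5 and 6 the second.

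HnRNPs are nuclear proteins that coat newly made transcripts and often keep the splicing machinery from an exon. SR proteins, which the Srsf genes encode, carry a domain rich in arginine and serine and often promote the use of an exon by binding enhancer sequences within it. CELF proteins bind GU-rich RNA, act on splicing in the nucleus and on the decay and translation of mRNA in the cytoplasm, and several of them are mostly neuronal. These counts measure the summed transcripts of each regulator, so splicing itself was not measured here.

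The 250 bases before the RefSeq start site are given for Celf1 and Hnrnpa0, since these had the smallest p-values against Water among the genes that were lower and higher in Acute mice. Capitals mark GGGCGG on either strand, the letters of a GC box, with overlapping matches counted, and stretches inside an annotated exon were left out. Both are printed 5′ to 3′ on the strand of the gene, from RefSeq (GRCm38.p6), at chr2:90940147-90940381 for Celf1 (plus strand) and at chr13:58128557-58128806 for Hnrnpa0 (minus strand).
Celf1: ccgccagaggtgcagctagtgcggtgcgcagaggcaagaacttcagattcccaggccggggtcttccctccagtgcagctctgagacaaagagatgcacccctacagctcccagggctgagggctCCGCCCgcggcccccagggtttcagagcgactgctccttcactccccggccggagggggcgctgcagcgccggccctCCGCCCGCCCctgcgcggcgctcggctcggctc
Hnrnpa0: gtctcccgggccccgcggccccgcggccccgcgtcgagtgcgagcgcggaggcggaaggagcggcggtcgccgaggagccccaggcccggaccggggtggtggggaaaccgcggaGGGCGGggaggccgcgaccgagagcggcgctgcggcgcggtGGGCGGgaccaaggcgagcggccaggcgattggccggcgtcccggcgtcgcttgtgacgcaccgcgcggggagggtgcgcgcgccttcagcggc
The Celf1 stretch of 235 bases had a GC content of 71.1% with 3 matches, and the Hnrnpa0 stretch of 250 bases had one of 81.2% with 2 matches. For Hnrnpm, all 250 bases lay inside annotated exons, and none are shown. RefSeq windows were found for 34 of the 36 genes, and Celf4 and Hnrnpll had none in the table used. Over the 61 windows of these 34 genes, which include alternative starts, the median GC content of the 250 bases was 64%, beside 52.4% over 32841 windows of all genes. GGGCGG was in 70.5% of the 61 windows and in 32.7% of all. The E box letters CACGTG, likewise searched on both strands, were in 4.92% of the 61 windows and in 6.02% of all windows. For the TATA box the letters searched on both strands were TATAAA, which were found in 9.84% and 12.4%. These matches describe letters only.

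Total counts ranged from 20004380 to 22569562 per mouse, and the 36 genes together held 0.607% to 0.698% of them. No single count of one of the 36 genes in a mouse was under 471. Marker genes of other cell types were present throughout, with none of the listed genes at 0 in every mouse. Levels are given as CPM, each count scaled to the size of its library after TMM normalization. The summed level of 7 of 8 oligodendrocyte markers ranged from 1260 to 1960 CPM in Water mice of the first batch and from 1640 to 2820 in its Acute mice, from 2530 to 3260 and from 2350 to 3260 in the second batch, and differed from Water by 0.13 (Acute) and 0.11 (Chronic) on the log2 scale. Averaged in the same way, summed striatum markers differed by 0.16 and -0.19 and central amygdala markers by 0.27 and 0.14. Choroid plexus markers differed by -0.27 and -0.25, while the 8 neuron markers differed by 0.027 and 0.016. No gene of these marker lists was called, and their part in the differences below was not tested. In bulk tissue, fewer cells of a type and less RNA per cell cannot be told apart.

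Between genes, levels were compared as CPM per kilobase of the mean coding transcript. In Water mice the 36 genes lay high among all genes, with a median of 53.2 CPM per kilobase beside 9.75 over all genes tested. Celf4, a CELF protein of neurons, was the highest at 313 CPM per kilobase. It was followed by Hnrnpk, which binds C-rich RNA, at 251, Hnrnpa2b1, an hnRNP of the A/B type that also takes part in RNA transport, at 211, and Hnrnpa3, of the same type, at 162. The Celf genes ranged most widely, since Celf6 was the lowest of all 36 at 12.6, below Srsf12 at 15.6 and Hnrnpll, a relative of Hnrnpl, at 20.1. Within the Srsf genes Srsf5 was highest at 135 CPM per kilobase. Neighbours in this order lay close: Srsf6 and Hnrnph2 both had 53.1, Srsf7 had 53.4, and Celf1 at 35.1 (SD 1.81, n = 10) and Hnrnpa0 at 35.7 did not differ beyond their spread.

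**Figure D1:**
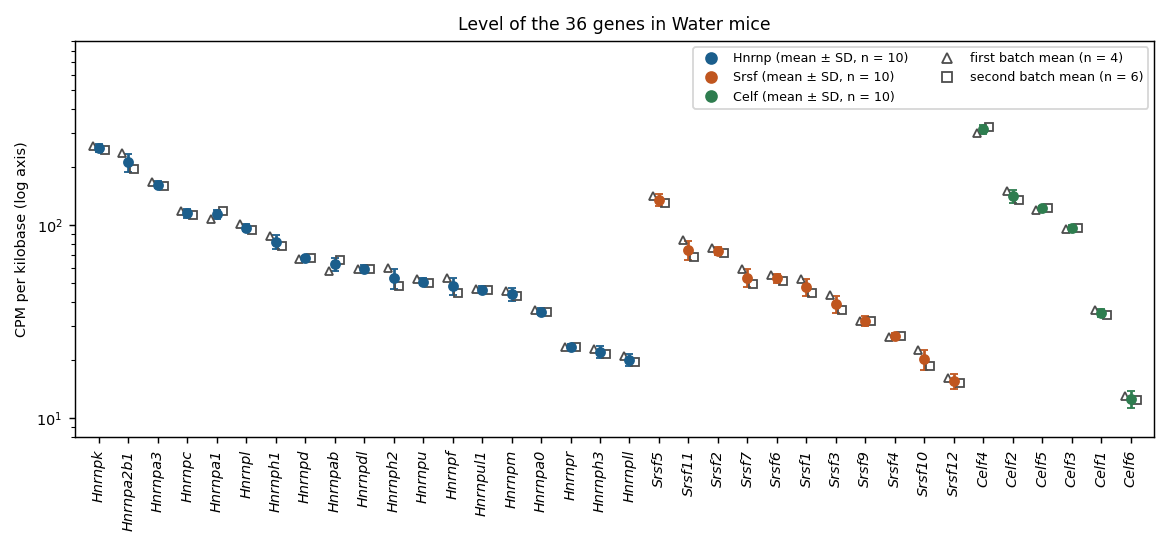
Level of the 36 genes in Water mice, in CPM per kilobase of mean coding transcript on a log axis, by family. Filled points are means with SD over 10 mice, triangles and squares are means of the first (4 mice) and second batch (6 mice); levels run from 12.6 (Celf6) to 313 (Celf4).

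The length used sets part of this order. With the union of all exons as length, which includes the rarest isoforms, Celf4 stayed highest at 100 CPM per kilobase, but Hnrnpa1 at 62.5 stood above Hnrnpk at 58, Hnrnpr was the lowest at 4.7 and Celf2 had 18.8 in place of 141.

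Mice of one group and batch differed little in these genes. The median SD of log2 CPM within group and batch was 0.067 over the 36 genes beside 0.14 over all genes tested, and it ran from 0.039 for the steadiest gene to 0.12. All genes tested reach down to a mean of 10 counts, and no set of genes of like level was compared. In some genes the batches lay wholly apart. In 6 of the 36 the mice did not overlap between the batches, all lower in the second: Hnrnpa2b1 (log2 difference -0.28), Hnrnph2 (-0.27), Srsf11 (-0.27), Srsf1 (-0.26), Srsf10 (-0.23) and Hnrnpf (-0.21). Such a separation downward was found in 1.7% of all genes tested, and a separation upward, found in 2.98% of all genes, in 0 of the 36. The median batch difference was -0.18 over the Srsf genes, -0.073 over the Hnrnp genes and 0.031 over the Celf genes, beside -0.015 over all genes. Batch was therefore a covariate in every comparison that joins the batches.

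The first comparison asks how a single drinking session related to these genes. Against Water, no gene of the 36 was called in Acute mice at an adjusted p under 0.05 in edgeR's quasi-likelihood test with Benjamini-Hochberg adjustment over all genes, and 0 of 16266 genes (0%) were called. At an unadjusted p under 0.05, Celf1, Hnrnpm and Hnrnph1 were lower and Hnrnpa0 was higher, 4 of 36 genes (11.1%) beside 9.52% of all genes tested. The 3 lower genes compare with 4.45% of all genes, and the 1 higher gene with 5.07%. Differences were small, from -0.12 to 0.095 on the log2 scale, with 24 of 36 below 0 beside 49.4% of all genes, and a median of -0.026 beside 0.0012.

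The second comparison asks the same of a month of intermittent drinking. Against Water, none of the 36 genes was called in Chronic mice, where 3 genes of 16266 (0.0184%) were. At an unadjusted p under 0.05, Celf1, Hnrnpm, Hnrnph1, Hnrnpa3, Celf2 and Hnrnpl were lower and Hnrnpa0 was higher, 7 of 36 genes (19.4%) beside 10.5% of all genes. The lower genes were 6 of 36, beside 5.65% of all genes, and 1 was higher, beside 4.81%. The log2 differences ran from -0.17 to 0.11, with 25 of 36 below 0 beside 49% of all genes, and their median was -0.031 beside 0.0022. By family, 4 of 19 Hnrnp and 2 of 6 Celf genes were lower at that p, 1 Hnrnp gene was higher, and no Srsf gene passed in either direction. The comparisons share their Water mice, so a gene that passes in both was not found independently in each.

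**Figure D2:**
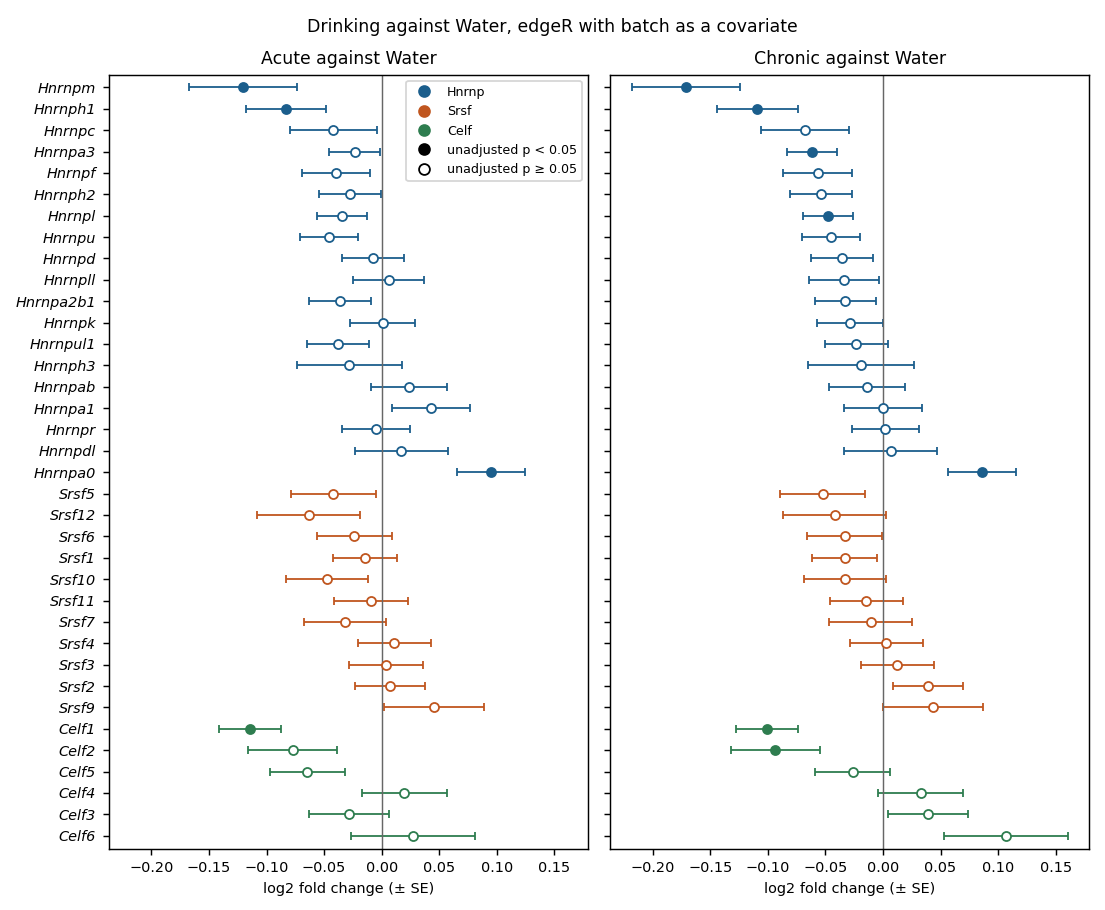
Log2 fold change (x axis, with SE) of each of the 36 genes, Acute against Water on the left and Chronic against Water on the right, from the fit over 28 mice with batch as a covariate. Filled points have an unadjusted p under 0.05 (4 and 7 genes), none passed after adjustment, and no Srsf gene is among them.

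These results depended on the tool. With ComBat-seq and then DESeq2, the order of steps in the study's methods, Celf1 was called in Acute mice (log2 fold change -0.12, adjusted p = 0.0226) and in Chronic mice (-0.10, adjusted p = 0.033), and Hnrnpm in Chronic mice (-0.17, adjusted p = 0.0431), among 30 and 88 genes called in all. DESeq2 with batch as a covariate called Celf1 in Acute mice (adjusted p = 0.047), among 9 genes in all, and none of the 36 genes in Chronic mice, where it called 38 genes.

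Celf1, also known as CUGBP1, binds GU-rich elements and promotes the decay of transcripts that carry them. The gene (ENSMUSG00000005506) lies on chromosome 2 from 90940382 to 91019497 (GRCm38). Its lowest, median and highest levels were 204, 220 and 241 CPM in the 10 Water mice. In the 9 Acute mice they were 198, 206 and 213, and in the 9 Chronic mice 185, 207 and 220. All 9 Acute and all 9 Chronic mice lay below the mean of the Water mice of their batch, and in the first batch the highest Acute mouse, at 213, lay below the lowest Water mouse, at 216. Groups apart within the first batch, here and below, rest on 3 or 4 mice each, and the share over all genes was not counted. The log2 fold change was -0.11 in Acute mice (SE 0.027, 95% confidence interval -0.17 to -0.059), a change of -7.61% with p = 0.000208 and an adjusted p of 0.194 in edgeR. In Chronic mice it was -0.10 (SE 0.027), with p = 0.00078 and an adjusted p of 0.192. Exact permutation of the group labels within batches gave p = 0.000309 and p = 0.00241 (2-sided, not adjusted).

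Hnrnpm, an hnRNP that binds GU-rich RNA and can block or promote exons, varied more between mice than Celf1. It lies on chromosome 17 from 33646233 to 33686860. Its lowest, median and highest levels were 70.9, 81 and 90.9 CPM in Water mice, 61.6, 73.3 and 83.3 in Acute mice, and 65.1, 69.4 and 79.1 in Chronic mice. The groups overlapped, with 8 of 9 Acute and 9 of 9 Chronic mice below the Water mean of their batch. The log2 fold change was -0.12 in Acute mice (SE 0.047, p = 0.0152, adjusted p = 0.462 in edgeR) and -0.17 in Chronic mice (SE 0.047, p = 0.001, adjusted p = 0.208), the largest difference downward among the 36 genes, or -11.2%. The exact permutation p-values were 0.038 and 0.00281. An exon of March2 overlaps Hnrnpm on the same strand, and the genes share 31-base stretches.

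Hnrnph1, which binds runs of G, lies on chromosome 11 from 50376990 to 50386528. Its levels were 167, 181 and 219 CPM (lowest, median and highest) in Water mice, 157, 176 and 195 in Acute mice and 143, 170 and 194 in Chronic mice. The groups overlapped in both batches, and the Water mean was 199 CPM in the first batch but 176 in the second. The log2 fold change was -0.083 in Acute mice (SE 0.035, p = 0.0235, adjusted p = 0.477 in edgeR) and -0.11 in Chronic mice (SE 0.035, p = 0.00403, adjusted p = 0.243). The exact permutation p-values were 0.0264 and 0.00968, and 8 of 9 Acute and 9 of 9 Chronic mice lay below the Water mean of their batch.

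Hnrnpa0 was the exception in direction among the genes at an unadjusted p under 0.05 in edgeR. This gene of the A/B type, whose annotation is a single exon and whose protein binds AU-rich elements, lies on chromosome 13 from 58125879 to 58128556 and shared 0% of its 31-base stretches with other genes. Its levels were 87.7, 96.1 and 102 CPM (lowest, median and highest) in Water mice, 98, 101 and 110 in Acute mice and 95.7, 99.9 and 111 in Chronic mice. All 9 Acute and all 9 Chronic mice were above the Water mean of their batch, although the groups overlapped in each batch. The log2 fold change was 0.095 in Acute mice (SE 0.030, p = 0.0033, adjusted p = 0.384 in edgeR), or 6.78%, and 0.086 in Chronic mice (SE 0.030, p = 0.00676, adjusted p = 0.277). Exact permutation gave p = 0.00167 and p = 0.0112.

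**Figure D3:**
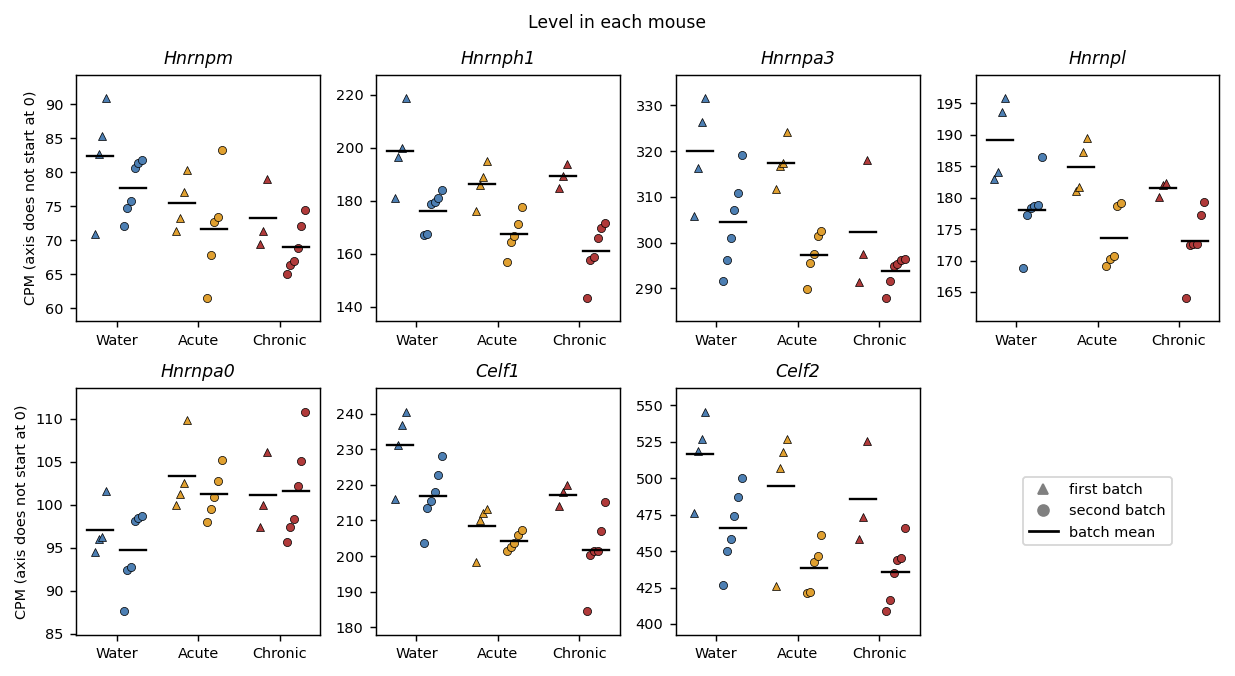
CPM of the 7 genes with an unadjusted p under 0.05 in either comparison with Water, 1 point per mouse (triangles first batch, circles second batch) and lines at batch means; the axes do not start at 0. Hnrnpa0 is the gene whose drinking mice lie higher, and in the first batch the Acute mice do not overlap the Water mice for Celf1.

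The other 3 genes passed the unadjusted threshold in Chronic mice only, which does not show that they differed between Chronic and Acute mice. Hnrnpa3 had levels of 292, 309 and 331 CPM (lowest, median and highest) in Water mice, 290, 302 and 324 in Acute mice and 288, 295 and 318 in Chronic mice. Its log2 fold change was -0.062 in Chronic mice (SE 0.022, p = 0.00868, adjusted p = 0.293 in edgeR, 9 of 9 mice below the Water mean of their batch) and -0.024 in Acute mice (p = 0.289). It shared 28.1% of its 31-base stretches with other genes, mostly a pseudogene, so its counts are less certain.

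Celf2, a relative of Celf1 with many neuronal isoforms, had levels of 427, 481 and 545 CPM in Water mice, 421, 447 and 527 in Acute mice and 409, 445 and 525 in Chronic mice. The ranges overlapped almost fully, and its batches differed by -0.16 on the log2 scale. The log2 fold change was -0.094 in Chronic mice (SE 0.039, p = 0.0219, adjusted p = 0.375 in edgeR, 7 of 9 mice below) and -0.077 in Acute mice (p = 0.0549, 7 of 9 below). Hnrnpl, which binds CA repeats, had 169, 181 and 196 CPM in Water mice, 169, 179 and 189 in Acute mice and 164, 177 and 182 in Chronic mice. Its log2 fold change was -0.048 in Chronic mice (SE 0.022, p = 0.0385, adjusted p = 0.443, 8 of 9 mice below) and -0.035 in Acute mice (p = 0.125), and in the first batch the Chronic mice, with a highest value of 182, lay below the Water mice, with a lowest of 183.

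The remaining Celf genes did not share a direction. Celf5 was lower in Acute mice by a log2 fold change of -0.065 (p = 0.057), and in the first batch its Acute and Chronic mice lay wholly below the Water mice, but in the second batch the groups overlapped. Celf6 had the largest log2 fold change upward of the 36 genes in Chronic mice, at 0.11 (SE 0.054, p = 0.0553, adjusted p = 0.491 in edgeR), with levels of 28, 30.7 and 36.8 CPM in Water mice and 29.8, 32.2 and 37.3 in Chronic mice. It passed an unadjusted p of 0.05 there with ComBat-seq then DESeq2, with the second batch alone and without some mice. With DESeq2 and batch as a covariate it did not. Celf3 had -0.029 against Water in Acute mice (p = 0.414) but 0.039 in Chronic mice (p = 0.267), and Celf4 had 0.020 (p = 0.601) and 0.033 (p = 0.384).

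No Srsf gene reached an unadjusted p of 0.05 against Water in either comparison, with 7 of 11 below 0 in each. In the first batch alone Srsf9 did so in Acute mice, where its 4 Acute mice, from 33.5 to 34.8 CPM, lay above its 4 Water mice, from 29.8 to 31.9, while in the second batch the groups overlapped. Srsf12 passed in Acute mice without Water mouse 1 of the second batch (log2 fold change -0.087, and -0.04 without Acute mouse 3 of that batch), and Srsf5 in Chronic mice without Water mouse 42 of the first. The smallest p in Acute mice was that of Srsf12, an SR protein that represses splicing, at 0.166. Its log2 fold change was -0.063 (95% confidence interval -0.15 to 0.028), with levels of 24.3, 29.1 and 33 CPM in Water mice, 24, 28 and 31.1 in Acute mice and 26.5, 29 and 30.4 in Chronic mice. In Chronic mice it was Srsf5, an abundant SR protein, with p = 0.167 and a log2 fold change of -0.052 (95% confidence interval -0.13 to 0.023). Srsf5 had 188, 200 and 226 CPM in Water mice, 173, 198 and 231 in Acute mice and 173, 199 and 217 in Chronic mice, and the groups overlapped throughout. Over the 11 genes, the 95% confidence intervals of the log2 fold changes lay between -0.154 and 0.134 in Acute mice and between -0.133 and 0.132 in Chronic mice. A p that misses the threshold does not show that these genes did not differ.

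Chronic and Acute mice were compared directly to ask whether repeated drinking differed from a single session. The paper reports that Chronic mice also drank more on the last drinking day and, in the second batch, had more ethanol in the blood. The number of sessions and the last intake therefore cannot be told apart here. Of the 36 genes, 0 had an unadjusted p under 0.05 in edgeR, beside 4.44% of all genes tested (1.95% higher and 2.5% lower), and 0 genes of all 16266 (0%) were called after adjustment, as with DESeq2. Of the 36 differences 21 were below 0, beside 50.6% of all genes, and the median log2 difference was -0.0083. The smallest p was that of Celf3, at 0.0666 (log2 fold change 0.068, 95% confidence interval -0.005 to 0.14, adjusted p = 0.998), followed by Hnrnpa3 at 0.102 (-0.038). The exact permutation p of Hnrnpa3 was 0.0282 (2-sided, not adjusted), the single one of the 36 under 0.05. The Chronic minus Acute log2 difference was -0.051 for Hnrnpm (95% confidence interval -0.15 to 0.048). For Celf1 it was 0.013 (95% confidence interval -0.044 to 0.07), and in the first batch its Chronic mice, from 214 CPM, lay above its Acute mice, up to 213.

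Each batch alone called none of the 36 genes after adjustment in edgeR, and over all genes the second batch called 4 in Chronic mice and 0 were called in the other comparisons with Water. In Acute mice 17 genes were lower than Water in both batches (27.6% of all genes tested) and 4 were higher in both (29.6%). In Chronic mice 22 genes were lower in both (25.3%) and 4 higher in both (25.9%). Celf1 was at -0.15 in the first and -0.087 in the second batch in Acute mice, and at -0.088 and -0.11 in Chronic mice. Hnrnpm had -0.12 in both batches in Acute mice, and -0.17 in both in Chronic mice. Hnrnpa0 had 0.09 and 0.098 in Acute mice, and 0.059 and 0.10 in Chronic mice. In the first batch the Chronic mice of Hnrnpc lay wholly below its Water and its Acute mice, while in the second batch the groups overlapped.

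**Figure D4:**
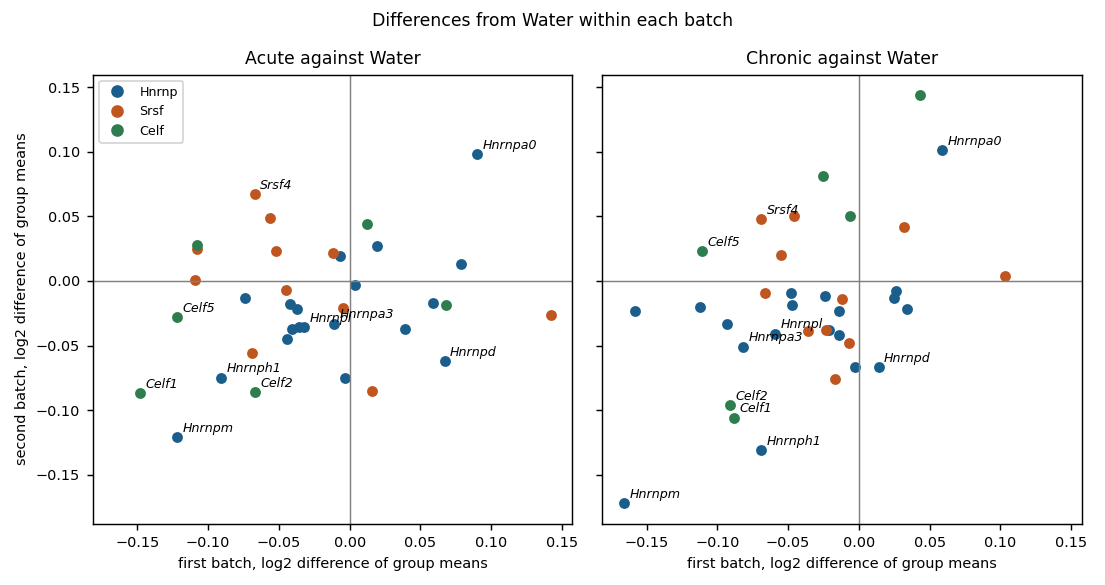
Log2 difference of drinking from Water mice in the first batch (x axis) and in the second batch (y axis), 1 point per gene, Acute on the left and Chronic on the right. In the lower left quadrant, lower in both batches, lie 17 genes in Acute and 22 in Chronic mice, with Hnrnpm and Celf1 among the farthest.

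A test of whether the drinking difference itself changed between batches called none of the 36 genes after adjustment (all genes 0% for Acute and 0.00615% for Chronic). At an unadjusted p under 0.05 it gave Hnrnpd, which binds AU-rich elements, and Srsf4 in Acute mice (all genes 4.13%), and Celf5 in Chronic mice (all genes 6.15%). Hnrnpd was at 0.067 in the first and -0.062 in the second batch (p = 0.016), Srsf4 at -0.067 and 0.067 (p = 0.0315) and Celf5 at -0.11 and 0.023 (p = 0.0499), each with an adjusted p of 0.81 or more in edgeR.

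The median GC content of the transcripts was 43.6% in the Hnrnp, 42.8% in the Srsf and 52.3% in the Celf genes, 44.1% over the 36, and 49.4% over all genes tested. When each mouse's smooth trend of counts on gene GC content and length was removed, the medians moved toward 0. In Chronic mice the genes below Water went from 25 to 19 of 36, the median log2 fold change went from -0.031 to -0.00458, and 2 genes in place of 7 had an unadjusted p under 0.05, Hnrnpm (-0.17, p = 0.00148) and Hnrnpl (-0.082, p = 0.00324), while the share of all genes at that p went from 10.5% to 6.1%. Celf1 went to -0.044 there (p = 0.104), Hnrnph1 to -0.056 (p = 0.0941), Hnrnpa0 to 0.048 (p = 0.0907), Celf2 to -0.018 (p = 0.602) and Hnrnpa3 to -0.008 (p = 0.722). In Acute mice 21 of 36 were below Water, the median was -0.011, and Celf1 (-0.06, p = 0.0286), Hnrnpm (-0.12, p = 0.0196), Hnrnpl (-0.058, p = 0.0315) and Hnrnpa0 (0.072, p = 0.0143) passed, beside 6.99% of all genes in the same fit. Hnrnpm was thus the gene whose value moved least of those named, while Celf2 and Hnrnpa3 moved to near 0. Of all 36 genes Hnrnpr was the highest with offsets, at 0.114 in Acute (p = 0.0813) and 0.109 in Chronic mice (p = 0.0932, both edgeR). Without offsets it had -0.0049 and 0.0021.

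**Figure D5:**
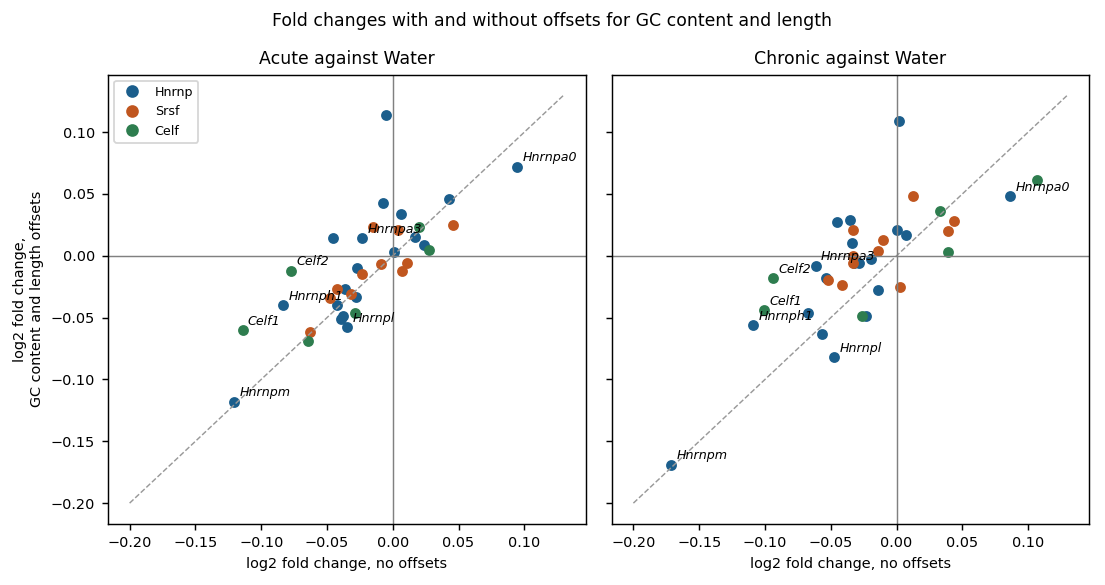
Log2 fold change of each of the 36 genes without offsets (x axis) and with offsets for GC content and length (y axis), Acute on the left and Chronic on the right, and the dashed line marks equal values. Most genes below 0 lie above the line, while Hnrnpm lies on it at -0.12 and -0.17.

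The other genes of the splicing pathway, in 6 lists, showed the following, with none called after adjustment in edgeR, while ComBat-seq then DESeq2 called Ewsr1, Syncrip and Snrnp200 of the genes named here in Chronic mice. The SR protein kinases of the SRPK and CLK type and their relatives, which phosphorylate the proteins that Srsf genes encode, had 5 of 9 genes at an unadjusted p under 0.05 in Chronic mice, all lower (all genes 5.65% lower), with a list median of -0.066. Srpk1, a mainly cytoplasmic SR protein kinase, went from 61.1 CPM (SD 3.29, n = 10) in Water to 57.1 (SD 2.06, n = 9) in Chronic mice (log2 fold change -0.094). The test gave p = 0.00395 and an adjusted p of 0.243 in edgeR, with 9 of 9 mice below the Water mean of their batch. Clk4, a nuclear one, went from 54.3 to 49.4 CPM (-0.12, p = 0.00415, 9 of 9 below). In Acute mice 2 of 9 kinases were lower (all genes 4.45%), Prpf4b (-0.081, p = 0.0262) and Clk2 (-0.080, p = 0.0304).

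Of 17 tested hnRNP-type proteins with other symbols, 3 were lower in Acute mice (all genes 4.45%), among them Ewsr1 (-0.080, p = 0.00836) and Sfpq (-0.12, p = 0.00886), which pairs with paraspeckle proteins. In Chronic mice 3 were lower (all genes 5.65%) and 1 was higher (all genes 4.81%), with Syncrip, known as hnRNP Q, at -0.10 (p = 0.00115), Ewsr1 at -0.096 (p = 0.00198) and Pcbp4 at 0.12 (p = 0.00236). Matr3 of this list was not among the genes tested. Of 17 SR-related proteins 1 (5.88%) was lower in each group, a share near that of all genes (4.45% in Acute and 5.65% in Chronic mice), Srrm1 in Acute mice (-0.091, p = 0.0105) and Son, a scaffold of nuclear speckles, in Chronic mice (-0.10, p = 0.0166).

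Among 22 neuronal and tissue splicing factors 2 (9.09%) passed in Acute mice, a share near the 9.52% of all genes: Nova1 was higher (0.22, p = 0.0346) and Ptbp3 lower (-0.088, p = 0.0393). In Chronic mice 3 were lower (all genes 5.65%), among them Ptbp3 (-0.11, p = 0.0111) and Rbfox1, a neuronal splicing factor that binds GCAUG (-0.074, p = 0.0247). Of 43 tested core spliceosome genes 3 (6.98%) passed in Acute mice, beside 9.52% of all genes. Of these 2 were higher, Snu13 (0.064, p = 0.0322) and Ppih (0.16, p = 0.0477), and 1 was lower, Sf1 (-0.079, p = 0.0206). In Chronic mice 5 were lower (all genes 5.65%), with Snrnp200 at -0.10 (p = 0.00159) and Sf3b1 at -0.090 (p = 0.00303), and 2 were higher (all genes 4.81%), Lsm7 (0.23, p = 0.00357) and Snrpn (0.078, p = 0.0221). Of 15 genes of nonsense-mediated decay and the exon junction complex, 1 (6.67%, beside 9.52% of all genes) passed in Acute mice, Smg1, which was lower (-0.18, p = 0.0486), and 0 passed in Chronic mice in edgeR (all genes 10.5%).

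Hnrnpul2 could be tested only in the second batch, where it had levels of 192, 198 and 217 CPM (lowest, median and highest) in 6 Water mice, 187, 196 and 199 in 5 Acute mice and 177, 195 and 201 in 6 Chronic mice. Against Water, log2 fold changes of -0.049 in Acute (SE 0.039, p = 0.225) and -0.054 in Chronic mice (SE 0.037, p = 0.157) were found in edgeR, over a table in which 5.04% and 13.5% of 16435 genes had an unadjusted p under 0.05. Of the 36 genes, 8 shared more than 20% of their 31-base stretches with other genes, so that reads could be split: Hnrnpf (66.2%, with a pseudogene holding 31.7%), Srsf4 (41%, an antisense transcript), Hnrnpa1 (29.9%), Hnrnpab (28.1%), Hnrnpa3 (28.1%), Srsf2 (23.1%), Hnrnph2 (22%) and Hnrnpk (21.1%). The strand setting of the counting was not given in the sources used here, so that reads from the stretches where exons of Hnrnpf, Srsf4, Hnrnpab, Srsf2 and Hnrnpk overlap exons of genes on the other strand may not be told apart.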

How the data were processed

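RNA of 28 amygdala samples was sequenced for the authors as paired-end reads in 2 batches, quantified with Salmon 0.14.1 against a GRCm38 transcriptome and summarized per gene. The deposited values are estimated counts per gene and mouse, rounded to whole numbers and given separately for the batches, without normalization or batch adjustment. Here both tables were merged by Ensembl identifier, versions dropped (49477 identifiers), and the 16266 genes with a mean of 10 or more counts were kept. Each mouse's group and batch came from its label, and no column was left out.

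Groups were compared by edgeR's quasi-likelihood test (edgeR 4.0.16, R 4.3.3) with TMM normalization, all 3 groups and batch as a covariate, adjusted over all genes by Benjamini-Hochberg at 0.05. Exact tests enumerated all regroupings of 2 groups within batches on log2 CPM (prior count 2) with batch means removed, 32340 for a comparison with Water, where 3.09e-05 is the smallest p allowed, and 16170 for Chronic against Acute. The labels name separate mice, so p-values measure the spread between mice. Genes were matched to GENCODE M21 (GRCm38), which gave lengths, GC content and shared stretches of 31 bases. Alternatives were DESeq2 1.42.0, ComBat-seq (sva 3.50.0) followed by DESeq2, RLE normalization, no filter and a mean of 100 counts, each batch alone, a replicate block, GC content and length offsets, and leaving out each mouse. The test was tested on simulated data. The genes and lists were chosen with earlier results of these data known. Every gene of the rule could be named, with values for Celf1, Hnrnpm, those at an unadjusted p under 0.05, and the highest, lowest and smallest-p gene of each family. From each other list at most 2 genes per direction and comparison were named, those with the smallest p under 0.05. Genes outside this rule (Hnrnpd, Hnrnpc, Hnrnpr, Srsf4, Celf3, Celf5, those apart between batches and others named for a level or for shared reads) were named after their values were seen.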

Additional observations from a re-analysis of the deposited data

Results flagged for a closer look

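In 3 genes the difference from Water changed between the batches at an unadjusted p under 0.05 in edgeR's interaction test, and none after adjustment. The second batch's log2 difference minus the first batch's was -0.129 for Hnrnpd in Acute mice (p = 0.016, adjusted p = 0.999), 0.136 for Srsf4 in Acute mice (p = 0.0315, adjusted p = 0.999) and 0.134 for Celf5 in Chronic mice (p = 0.0499, adjusted p = 0.81).

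A mouse stood apart from the others of its group in 11 of 108 combinations of gene and group, on log2 CPM with batch means removed, by Dixon's criterion, which chance meets in about 1 in 20 groups. Values are the gap to the nearest mouse as a share of the group's range. Celf1 was set apart by the lowest Acute mouse (0.59, mouse 33 of the first batch, 198 CPM) and by the lowest Chronic mouse (0.537, mouse 1 of the second batch, 185 CPM). The same mice were lowest for Celf5 in the Acute group (0.535, 286 CPM) and for Hnrnph1 in the Chronic group (0.519, 143 CPM). Without Acute mouse 33, the log2 fold change of Celf1 in Acute mice was -0.10, and without Chronic mouse 1 that in Chronic mice was -0.085. Other lowest mice stood apart for Hnrnpa1 in the Chronic group (0.516), Hnrnpc in the Water (0.472) and Chronic groups (0.5), Hnrnpk in the Water group (0.494), Hnrnpul1 in the Acute group (0.554) and Srsf5 in the Water group (0.563). Srsf3 was set apart by the highest Chronic mouse (0.583).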

How the results depend on the processing

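Over the alternatives run, the median log2 fold change of the 36 genes lay between -0.0389 and -0.0108 against Water for Acute, between -0.035 and -0.00458 for Chronic (both ends nearest 0 with offsets), and between -0.0115 and 0.00221 for Chronic against Acute, where the sign turned with offsets and without some mice. The number of genes called after adjustment went from 0 to 1 in Acute mice with DESeq2 and with ComBat-seq then DESeq2, and to 2 in Chronic mice with the latter. At an unadjusted p under 0.05, the 4 genes of Acute mice (all genes 9.52%) became 7 with DESeq2 (all genes 9.4%). With the first batch alone 2 genes passed (Celf1 and Srsf9, all genes 7.21%), and 2 with the second (Celf1 and Hnrnpa0, all genes 5%). When each mouse was left out, 3 to 7 passed (all genes 6.8% to 11.8%), with 7 without Water mouse 2 or Water mouse 5 of the second batch. The 7 genes of Chronic mice (all genes 10.5%) became 2 with GC content and length offsets (all genes 6.1%), and 6 to 10 when each mouse was left out (all genes 7.57% to 13.3%). With the first batch alone none of the 7 passed, and 2 other genes did, Hnrnpc and Hnrnph2 (all genes 3.52%). For Chronic against Acute the 0 genes became 1 with the first batch alone (Hnrnpc, all genes 4.58%) and 0 to 1 when each mouse was left out (all genes 3.23% to 6.02%). The interaction counts of 2 (Acute, all genes 4.13%) and 1 (Chronic, all genes 6.15%) ranged from 1 to 6 (all genes 3.22% to 6.2%) and from 0 to 3 (all genes 3.93% to 9.07%) when each mouse was left out, with 6 without Water mouse 41 (all genes 6.2%), and the 1 became 0 with no filter and with a mean of 100 counts. The cause of these shifts was not tested, except that single batches and left-out mice rest on fewer samples. The labels do not say what the second batch's mouse numbers mean. The mean correlation of same-numbered mice ranged from -0.131 to 0.237. With 2 or 3 mice per number this cannot show whether the numbers pair the mice. The replicate block changed no call and gave 4 (all genes 8.55%) and 8 genes (all genes 10.3%) at an unadjusted p under 0.05. Of 43 values of named genes, 3 changed sign under an alternative: Srsf5 in Acute mice (0.013, first batch alone), Hnrnpa3 in Acute mice (0.014, offsets) and Snrpn in Chronic mice (-0.039, first batch alone). Over all 36 genes, offsets turned the sign of 7 in Acute and of 7 in Chronic mice, among them Hnrnpu (from -0.046 to 0.014 and from -0.045 to 0.027). Beside Celf1 and Hnrnpm, ComBat-seq then DESeq2 called Ewsr1, Syncrip and Snrnp200 in Chronic mice. For levels per kilobase, the union of exons as length, and for Hnrnpul2 other scalings, filters and left-out mice, were tried after the data were seen, and Hnrnpul2 kept its sign under each.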
